A study of Mus musculus with 6 samples.

Results

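The IgLON family comprises 5 genes in mouse, Opcml, Lsamp, Ntm, Negr1 and Iglon5, and all 5 were found by symbol among the 30406 genes listed for every library. They were chosen by their measured UMI levels in these same data, where Opcml had led the nuclei rich in Pi16 and Lsamp the fibroblast nuclei, so the levels of these genes by population are given as a description, with no test. Single-nucleus RNA sequencing was performed on the periosteum, the tissue layer on the outer bone surface, of wild-type mice labelled C57BL6 (C57BL/6ScNj in the methods). Of the 6 libraries, 2 were of uninjured tibia, while 2 from day 3, 1 from day 5 and 1 from day 7 followed an open tibial fracture left without stabilization. Per the methods, the mice were 12 weeks old and of both sexes. Each uninjured library held the nuclei of 4 mice and each fracture library those of 4 to 9 mice, pooled before sequencing, so that a library and not a mouse was the replicate. After fracture the periosteum was collected together with the hematoma or callus, which brings cells that an uninjured bone lacks, and nuclei were sorted by a DNA dye with no selection of a cell type.

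IgLON proteins are short cell-adhesion proteins of the immunoglobulin superfamily, held on the outer membrane by a glycosylphosphatidylinositol (GPI) anchor. They bind each other on the same and on facing cells and are best known in the nervous system, where they take part in neurite outgrowth and synapse formation. Metalloproteinases can cut them from the cell surface. OPCML is also known for binding receptor tyrosine kinases, including FGFR1, EPHA2, HER2 and AXL, and for being silenced in tumours.

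Raw counts of unique molecular identifiers (UMIs, 1 per captured transcript) covered 13551 nucleus barcodes, from 655 to 4712 per library, with 1499281 to 29796296 UMIs per library and medians of 892 to 2806 UMIs per barcode. The limits on genes, mitochondrial and ribosomal UMIs kept 8073 barcodes, and 6291 remained after muscle nuclei had been removed. Of the 4712 barcodes of day 3 replicate 2 only 1720 passed, and of the 3448 at day 7 only 1351, mostly because ribosomal UMIs were at 1.5% or more. Levels are given in CPM, the UMIs of a gene scaled to 1000000 UMIs of the nuclei summed, with exact Poisson 95% intervals that cover counting error only. The libraries shared 18 barcode sequences. Clusters were named from fixed markers and the names end in "-like". A lower sum can come from fewer expressing cells or from less RNA per cell, which cannot be told apart.

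The populations were small in places. SSPC-like nuclei (skeletal stem/progenitor cells, marked by Pi16, Dpp4, Ly6a, Cd34, Cd248 and Sema3c) were few, with 29 and 65 per uninjured library, 8 and 10 on day 3, 78 on day 5 and 66 on day 7. Fibroblast-like nuclei numbered 80 and 185, then 97 and 182, then 365 and 185. The SSPC markers summed to 6643 and 6044 CPM in uninjured SSPC-like nuclei and to between 299.9 and 1629 CPM after fracture, with Dpp4 at 0 in day 3 replicate 1 and Cd248 at 0 at day 7. The SSPC-like name is therefore weaker after fracture. The immune-like nuclei served as a background, as IgLON genes are not known as markers of immune cells. Whether they express any of these genes themselves was not tested. Those of uninjured replicate 1 held 1 UMI of Ptprc and 3 of 6 immune markers, which goes against their name and makes them a weak background there. The chondrocyte-like nuclei of uninjured replicate 2 lacked Acan and Col9a1 and also go against theirs.

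In the GENCODE annotation of GRCm38, 4 of the 5 genes are very long. Opcml (ENSMUSG00000062257) spans chr9:27790775-28925410 on the plus strand, and Ntm (ENSMUSG00000059974) lies 69.34 kb further on, at chr9:28994750-29963141 on the minus strand. Lsamp (ENSMUSG00000061080) spans chr16:39984361-42181679 and Negr1 (ENSMUSG00000040037) chr3:156561794-157316445, both on the plus strand. Iglon5 (ENSMUSG00000013367) is short, at chr7:43472904-43490075 on the minus strand. Exons made up 1.28% of the Opcml span, 0.783% of Lsamp, 0.834% of Ntm and 1.39% of Negr1, against 15.3% of Iglon5. Per the methods and labels, intronic as well as exonic reads were counted, so most of the sequence that could be counted for the 4 long genes was intron. An annotated antisense transcript overlaps each of the 4 long genes and held between 3 and 18 UMIs, against 2073 to 4637 UMIs of the genes themselves.

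Lsamp and Negr1 were both lower at day 3, and their RefSeq promoter windows reach the GENCODE start, so the bases just before their annotated starts are shown as RefSeq gives them on the GRCm38.p6 build. Capitals mark a CCAAT box (CCAAT) in Lsamp and a GC box (GGGCGG) in Negr1, on either strand.
Lsamp, chr16:39984114-39984360, plus strand: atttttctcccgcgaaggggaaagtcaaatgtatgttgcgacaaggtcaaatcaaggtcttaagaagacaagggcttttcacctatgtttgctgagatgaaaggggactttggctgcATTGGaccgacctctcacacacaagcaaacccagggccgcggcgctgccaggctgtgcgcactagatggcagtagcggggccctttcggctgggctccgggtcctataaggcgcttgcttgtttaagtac
Negr1, chr3:156561544-156561793, plus strand: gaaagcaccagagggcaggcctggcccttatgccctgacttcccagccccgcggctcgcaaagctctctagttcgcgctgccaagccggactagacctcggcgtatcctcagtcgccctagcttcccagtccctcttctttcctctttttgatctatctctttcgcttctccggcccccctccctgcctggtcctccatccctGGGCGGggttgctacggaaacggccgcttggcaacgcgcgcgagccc

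Over all 32851 RefSeq windows of 300 bases, 37.4% held a CCAAT box and 35.7% a GC box on either strand. The AP-1 letters TGANTCA, present in 7.81% of all windows, and the TATA letters TATAAA, present in 13.6%, were found in none of the 7 windows listed for the 5 genes. The windows held from 2 CG dinucleotides, in an Ntm window, to 29, in that of Negr1, against a median of 7 over all windows. These matches describe letters only.

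Opcml, the opioid-binding cell adhesion molecule gene, was high in 1 population of the uninjured bone. In SSPC-like nuclei it reached 3009 CPM in uninjured replicate 1 (149 UMIs, interval 2545 to 3532) and 3844 CPM in replicate 2 (1328 UMIs, interval 3640 to 4057). In fibroblast-like nuclei the levels were 359.6 and 362.2 CPM, so that SSPC-like nuclei stood 8.37 and 10.6 times higher in the 2 libraries. On the log2 scale, with 10 CPM added, the ratio of the means was 3.21. SSPC-like nuclei held 63.9% and 73.6% of all Opcml UMIs of the clustered uninjured nuclei, and fibroblast-like nuclei 24.9% and 19.6%.

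Below these 2 populations, uninjured Opcml was sparse. The unnamed cluster led by Itgbl1 and Thbs4, genes of tendon and connective tissue, held 160 and 131.9 CPM, from 1 and 22 UMIs, and chondrocyte-like nuclei 0 and 186.7 CPM. Levels were 165.6 and 86.0 CPM in Schwann-like nuclei, from 7 and 10 UMIs, and 157.5 and 65.5 CPM in immune-like nuclei, from 3 and 18 UMIs. The intervals of the Schwann-like and immune-like levels overlapped in both libraries. Endothelial-like nuclei held 4.75 and 34.7 CPM, pericyte/SMC-like nuclei 79.7 and 14.98 CPM, and adipocyte-like nuclei none. The order among these lower populations differed between the 2 libraries.

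Shares of nuclei separated SSPC-like from fibroblast-like nuclei in the same way. After each nucleus was thinned to 500 UMIs, an Opcml UMI was found in 58.6% of the 29 SSPC-like nuclei of replicate 1 (exact binomial 95% interval 38.9 to 76.5) and in 55.4% of the 65 of replicate 2 (42.5 to 67.7). In fibroblast-like nuclei the shares were 10.0% and 8.11%, at median depths of 1670 and 3767 UMIs. The immune-like nuclei, at medians of 558 and 1730 UMIs, had 9.68% and 7.79%. By share, Opcml in fibroblast-like nuclei could thus not be told from the background. By CPM it lay above the immune-like interval in replicate 2, and in replicate 1 the intervals overlapped. Its level differed between fibroblast clusters. The cluster led by Pdzrn4 and Brinp1 held 975 and 479.6 CPM and that led by Ccbe1 and Meg3 held 450.6 and 364.2 CPM, while that led by Tenm2 and Ntng1 held 0 and 8.33 CPM.

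Levels are also given by a gate on single nuclei, which for Pi16 restates the values the genes were chosen by and is no further support. In uninjured nuclei with a Pi16 UMI, Opcml stood at 1073 and 2018.99 CPM (84 and 130 nuclei). In nuclei with a Pdgfra but no Pi16 UMI, it stood at 146.2 and 217.8 CPM (35 and 145 nuclei). Pi16 is a secreted peptidase inhibitor that marks the progenitors, and Pdgfra a growth factor receptor of most stromal cells.

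**Figure D1:**
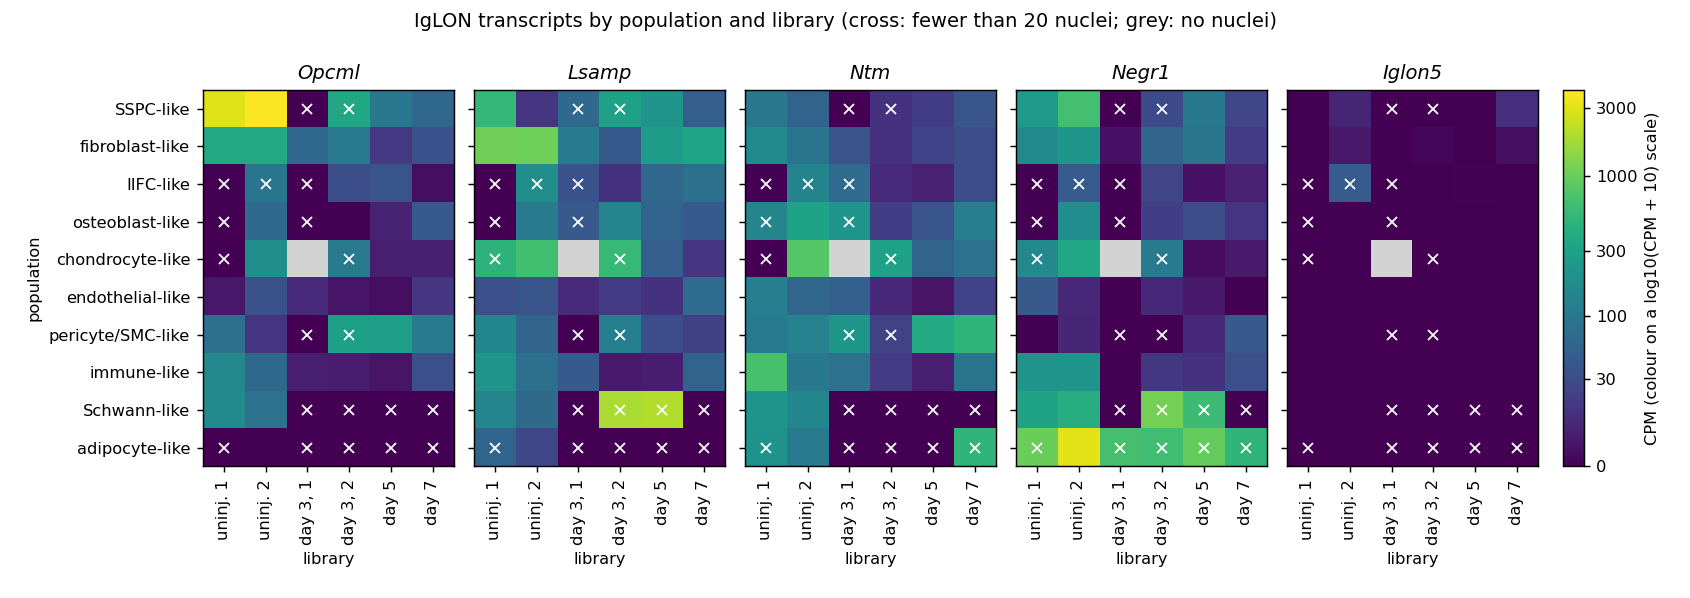
Level of each IgLON gene in CPM (colour, on a log10(CPM + 10) scale) by population (rows) and library (columns), with a cross where a library held fewer than 20 nuclei and grey where it held none. Opcml is brightest in the uninjured SSPC-like nuclei (3009 and 3844 CPM), Lsamp in the uninjured fibroblast-like nuclei (1079 and 1047 CPM) apart from 2 crossed Schwann-like fields, and Negr1 in adipocyte-like nuclei, while Iglon5 is near 0 throughout.

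After fracture, Opcml was low in the SSPC-like nuclei of all 4 libraries. It had 0 UMIs of 30007 in the 8 nuclei of day 3 replicate 1, 352.4 CPM in the 10 nuclei of day 3 replicate 2, 102.4 CPM at day 5 and 64.4 CPM at day 7. A floor of 3 counts in day 3 replicate 1 lay 34.3-fold below the uninjured mean of 3426 CPM. The upper Poisson limit for 0 UMIs there was higher than this floor, at 122.9 CPM. None of the 4 intervals reached the uninjured levels. In nuclei with a Pi16 UMI the levels were 0, 18.7, 31.4 and 47.2 CPM. The SSPC markers themselves were lower in these nuclei after fracture, as given above, and which nuclei of an injured bone descend from the uninjured SSPCs is not known from these counts.

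In fibroblast-like nuclei Opcml stood at 63.4 and 109.8 CPM at day 3, 16.8 CPM at day 5 and 35.1 CPM at day 7. At day 3 the shares of nuclei with a UMI were 3.09% and 4.40%, against 0.645% and 0.663% of immune-like nuclei. Those of fibroblast-like nuclei at days 5 and 7, at 0.275% and 2.17%, were below those of immune-like nuclei, at 0.380% and 2.27%, but rest on 1 to 4 nuclei each. By CPM the interval of fibroblast-like nuclei lay above that of immune-like nuclei at day 5, and the intervals overlapped at day 7.

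Pericyte/SMC-like nuclei, the cells around small vessels, gave the highest Opcml level of the named populations at days 5 and 7, where its interval overlapped that of SSPC-like nuclei at day 7. They stood at 277.2 CPM at day 5 (85 UMIs, 77 nuclei, interval 221.4 to 342.7) and 107.1 CPM at day 7 (5 UMIs), and held 36.8% of the Opcml UMIs of the clustered nuclei at day 5. A similar part at day 5, 34.6%, lay in the 316 IIFC-like nuclei (injury-induced fibrogenic cells, marked by Postn and collagens). At day 3 the pericyte/SMC-like levels were 0 and 282.6 CPM in 4 and 10 nuclei, too few to order. The uninjured levels were 79.7 and 14.98 CPM. A gate on nuclei with a UMI of Rgs5 or Myh11, genes of these cells, did not give the same order, with 67.6 and 290.5 CPM before fracture, 143.5 CPM at day 5 and 68.4 CPM at day 7. No direction is therefore drawn from these values.

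Lsamp, the limbic system-associated membrane protein gene, had the opposite order of SSPC-like and fibroblast-like nuclei in the uninjured libraries. In fibroblast-like nuclei it stood at 1079 CPM (174 UMIs, interval 924.4 to 1252) and 1047 CPM (1023 UMIs, interval 983.6 to 1113). In SSPC-like nuclei it stood at 525 CPM (26 UMIs) in replicate 1 and 14.5 CPM (5 UMIs) in replicate 2. Fibroblast-like nuclei were thus higher in both libraries, by 2.05 and 72.3 times. The size of this contrast is not settled, since the log2 ratio of the means was 1.94 with both libraries, 1.03 without uninjured replicate 2 and 5.43 without uninjured replicate 1. Lsamp was not confined to fibroblast-like nuclei. Uninjured chondrocyte-like nuclei, 8 and 75 per library, stood between 467.7 and 637.9 CPM, though those of replicate 2 go against their name. Osteoblast-like and IIFC-like nuclei held at most 109.9 and 184.3 CPM.

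Within the fibroblast-like nuclei, Lsamp was carried by 2 of the 4 clusters. The cluster led by Pdzrn4 and Brinp1 held 2668 and 1174 CPM, and that led by Ccbe1 and Meg3 held 2092 and 1821 CPM. The cluster led by Tenm2 and Ntng1 held 0 and 99.9 CPM and that led by Luzp2 and Nlgn1 held 91.8 and 11.4 CPM. A Lsamp UMI was found in 26.3% and 27.0% of fibroblast-like nuclei at 500 UMIs, against 12.9% and 10.4% of immune-like nuclei. In nuclei with a Pdgfra but no Pi16 UMI, Lsamp stood at 1237 and 964.2 CPM, and in those with a Pi16 UMI at 359.6 and 311.5 CPM.

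After fracture, Lsamp in fibroblast-like nuclei stood at 106.8 and 45.2 CPM at day 3, 263.9 CPM at day 5 (interval 239.4 to 290.2) and 324.1 CPM at day 7 (interval 268.7 to 387.6). The day 5 and day 7 intervals lay above both day 3 values and below both uninjured values. Days 5 and 7 were not tested, having 1 library each. The cluster led by Ccbe1 and Meg3 gave 40.7 and 23.1 CPM at day 3, and that led by Pdzrn4 and Brinp1 gave 291.8 and 74.0 CPM. These 2 clusters held most fibroblast-like nuclei both before fracture and at day 3.

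Lsamp was also found outside these populations after fracture. The unnamed cluster led by Itgbl1 and Thbs4 stood at 797.9 CPM at day 5 (401 UMIs, 101 nuclei) and 239.5 CPM at day 7, against 77.9 and 16.3 CPM at day 3. It held 0 and 275.7 CPM before fracture, in 5 and 51 nuclei. A gate on nuclei with a UMI of Tnmd or Thbs4 had another order, with 81.1 and 499.2 CPM before fracture, 344.3 CPM at day 5 and 215.8 CPM at day 7, so no direction from uninjured is drawn. Schwann-like nuclei, the glia of peripheral nerves, stood at 1852 CPM in day 3 replicate 2 (46 UMIs) and 1978 CPM at day 5 (36 UMIs), but in only 5 and 7 nuclei. In the uninjured libraries, with 24 and 25 Schwann-like nuclei, the levels were 141.9 and 68.8 CPM.

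**Figure D2:**
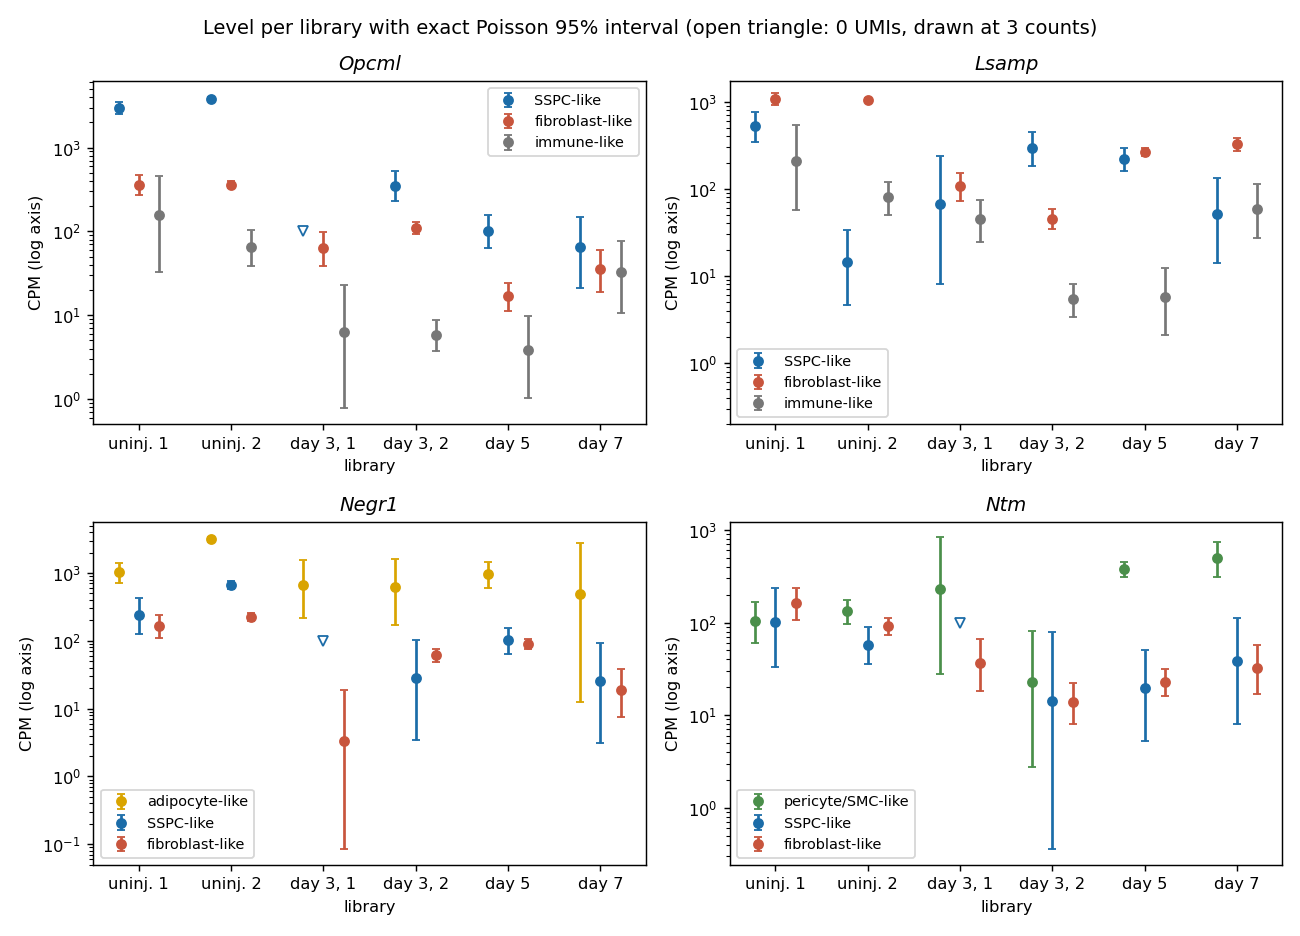
CPM on a log axis for 4 IgLON genes in each of the 6 libraries, by population, with exact Poisson 95% intervals. Open triangles mark 0 UMIs and are drawn at 3 counts. Opcml in SSPC-like nuclei lies at 3009 CPM or above in both uninjured libraries and at or below 352.4 CPM in the 4 fracture libraries, and Ntm in pericyte/SMC-like nuclei lies highest at days 5 and 7.

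Detection of Opcml and Lsamp was also read nucleus by nucleus. At 500 UMIs, the 29 SSPC-like nuclei of replicate 1 held 15 with Opcml alone, 2 with Lsamp alone and 2 with both. The 65 of replicate 2 held 36 with Opcml alone and none with Lsamp. Among fibroblast-like nuclei of replicate 1, 5 held Opcml alone, 18 Lsamp alone and 3 both, and in replicate 2 these counts were 12, 47 and 3. In 54 and 123 fibroblast-like nuclei neither gene was found at this depth, which does not show that they lacked them. Detection was too low to say whether the genes avoid or share nuclei.

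**Figure D3:**
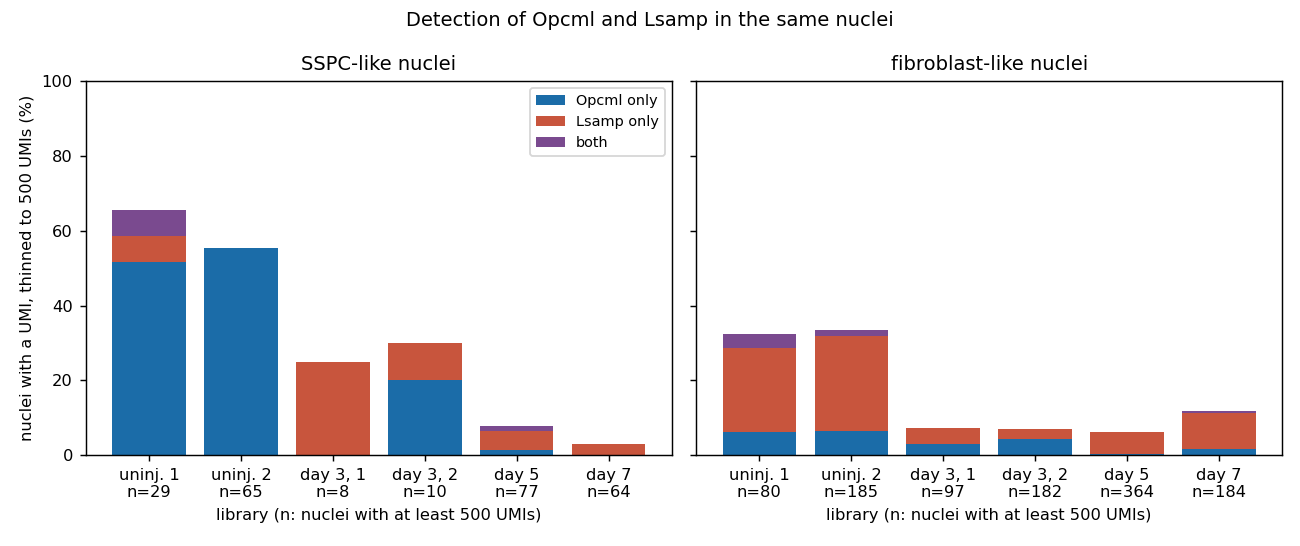
Share of SSPC-like (left) and fibroblast-like (right) nuclei in which Opcml, Lsamp or both were found after thinning to 500 UMIs, by library, with the number of nuclei under each bar. Opcml alone makes up most of the uninjured SSPC-like bars and Lsamp alone most of the uninjured fibroblast-like bars.

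Negr1, the neuronal growth regulator gene, which human genetics ties to body weight, was highest in adipocyte-like nuclei. These stood at 1022 CPM (35 UMIs, 16 nuclei) and 3118 CPM (709 UMIs, 25 nuclei) before fracture. They held 31.5% and 51.0% of the Negr1 UMIs of the clustered uninjured nuclei, although they were 16 of 477 and 25 of 918 nuclei. After fracture 1 to 6 adipocyte-like nuclei were left per library, at 671.1 and 620.6 CPM at day 3, 951.4 CPM at day 5 and 489.5 CPM at day 7, from 1 to 23 UMIs. In the nuclei with a UMI of Adipoq, an adipocyte hormone gene, Negr1 stood at 976.8 and 2415 CPM before fracture (7 and 35 nuclei).

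In SSPC-like nuclei Negr1 stood at 242.3 and 660 CPM before fracture, and at 0, 28.2, 102.4 and 25.8 CPM in the fracture libraries. In fibroblast-like nuclei it stood at 167.4 and 222.1 CPM before fracture. The immune-like background was 210 and 214.7 CPM in the same libraries, so that the fibroblast-like level was not above it. Schwann-like nuclei held 307.5 and 404.4 CPM before fracture.

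Ntm, the neurotrimin gene, was spread over many populations with none far above the rest in both uninjured libraries. The levels were 161.2 and 92.1 CPM in fibroblast-like, 101 and 57.9 CPM in SSPC-like, 104.2 and 131.8 CPM in pericyte/SMC-like and 121.2 and 62.7 CPM in endothelial-like nuclei. The immune-like level was 682.6 CPM from 13 UMIs in replicate 1 and 101.9 CPM in replicate 2. The fibroblast-like and SSPC-like levels were thus not above the immune-like level, which in replicate 1 came from nuclei that go against their name. Chondrocyte-like nuclei reached 809.1 CPM in replicate 2, where they go against their name, and had 0 UMIs in the 8 nuclei of replicate 1. After fracture pericyte/SMC-like nuclei stood at 378.3 CPM at day 5 (116 UMIs) and 492.5 CPM at day 7 (23 UMIs), against at most 131.8 CPM in the uninjured libraries. At day 3 they stood at 230.4 and 22.6 CPM, from 2 UMIs each. Of the Ntm UMIs of the clustered nuclei at day 5, 43.1% lay in pericyte/SMC-like nuclei.

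Iglon5, whose protein is known as the target of autoantibodies in a human neurological disease, was barely detected. It had 56 UMIs in all 13551 barcodes and 16 in the clustered nuclei. Of these 16, 4 lay in SSPC-like, 7 in fibroblast-like and 2 in IIFC-like nuclei (injury-induced fibrogenic cells, marked by Postn and collagens). Endothelial-like, immune-like, pericyte/SMC-like, Schwann-like and adipocyte-like nuclei held none. At this depth its levels could not be compared between populations or times.

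Levels of different genes were compared per length, as CPM per 100 kb of gene span over the uninjured libraries. In SSPC-like nuclei Opcml stood at 302, Negr1 at 59.8, Lsamp at 12.3 and Ntm at 8.20. In fibroblast-like nuclei Lsamp stood at 48.4, Opcml at 31.8, Negr1 at 25.8 and Ntm at 13.1. In adipocyte-like nuclei Negr1 stood at 274.3. Opcml was thus the most abundant of the 4 long genes per length in SSPC-like nuclei and Lsamp in fibroblast-like nuclei. Per kb of exon the first places were the same, with Opcml at 236 in SSPC-like and Lsamp at 61.7 in fibroblast-like nuclei.

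The genes whose levels followed each IgLON gene most closely were found over 41 points, each a population in a library with at least 20 nuclei, among 12026 genes. The points of a library share its depth and its free RNA, so the values are descriptions. Opcml was most like Adamtsl5, a secreted matrix protein (Pearson r = 0.837), Axl, a receptor tyrosine kinase (0.796), and Lama2, a laminin chain of basement membranes (0.786). Lsamp was most like Gabra3, a GABA receptor subunit (0.782), Hpse2, a heparanase relative (0.746), and Cntfr, the GPI-anchored receptor of ciliary neurotrophic factor (0.704).

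Among the genes most like Ntm were Grik1, a glutamate receptor subunit (0.741), and Pygm, muscle glycogen phosphorylase (0.709). Negr1 was most like Dpyd, a pyrimidine-degrading enzyme (0.844), Abca8a, a lipid transporter (0.841), and C4b, a complement component (0.812). Between the IgLON genes themselves r ranged from 0.392 to 0.539. No IgLON gene was among the 3 most alike of another. Lama2 and Abca8a were also among the fibroblast markers used to name the populations.

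For the test of day 3, the UMIs of all stromal-like nuclei of a library were added up. Stromal-like here joins the chondrocyte-like, osteoblast-like and IIFC-like nuclei with the fibroblast-like and SSPC-like ones. The 4 IgLON genes that passed the filter on low counts were all lower at day 3. Opcml stood at 912.7 and 1086 CPM before fracture and at 49.9 and 98.0 CPM at day 3. Lsamp stood at 895 and 693.8 CPM and then at 94.5 and 71.7 CPM. For both genes every day 3 value was below every uninjured value. The share of all genes tested that separate in this way was not counted, so the separation is a description and no support.

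Ntm stood at 141.1 and 137.4 CPM before fracture and at 47.2 and 21.3 CPM at day 3. Negr1 stood at 176.4 and 316.1 CPM and then at 2.62 CPM, from 1 UMI, and 52.1 CPM. The groups did not overlap for these genes either, with the same limit. The 2 day 3 libraries differed more from each other than they did for Lsamp.

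By the quasi-likelihood test of edgeR, with p-values adjusted after Benjamini and Hochberg over all genes tested, Opcml fell by 3.78 on the log2 scale (SE 0.40, adjusted p = 0.00127) and Lsamp by 3.29 (SE 0.40, adjusted p = 0.00231). In the same edgeR test Negr1 fell by 3.05 (SE 0.67, adjusted p = 0.0216) and Ntm by 2.16 (SE 0.51, adjusted p = 0.0286). Iglon5 did not pass the filter. The genes were chosen by levels in these same data, the uninjured libraries among them. A fall from those libraries can be favoured by that choice. The p-values of the IgLON genes, here and in fibroblast-like nuclei, are therefore no independent support. The 4 genes called lower stand against a background of 892 of 9868 genes called, 9.04%, of which 520 genes, 5.27% of those tested, were lower and 372, 3.77%, were higher. The median log2 change of all genes was 0.04.

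This result rested on day 3 replicate 1. Without it no gene of 12202 was called in stromal-like nuclei by edgeR, though 1689 had an unadjusted p under 0.05, and the IgLON genes kept log2 changes of -3.50 (Opcml), -3.62 (Lsamp), -2.85 (Ntm) and -2.42 (Negr1) with adjusted p from 0.174 to 0.203 by edgeR. The 2 day 3 libraries and uninjured replicate 2 were made with Cell Ranger 7.1.0 and uninjured replicate 1 with 6.0.0. Over the 14 alternatives run, Opcml and Lsamp were each called in 13, Negr1 in 9 (log2 changes from -6.32 to -2.42) and Ntm in 5 (from -2.85 to -1.37), and DESeq2 did not call Negr1 (adjusted p = 0.187). Within version 7.1.0, without uninjured replicate 1, Opcml and Lsamp were called and Ntm and Negr1 were not.

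The make-up of the stromal-like nuclei also moved. SSPC-like nuclei made up 23.4% and 16.2% of them before fracture and 6.84% and 3.86% at day 3, and Pi16 fell by 4.76 on the log2 scale (edgeR, adjusted p = 0.00175) with Opcml. The part of this shift in the Opcml change was not tested. Of the 1085 Opcml UMIs of day 3 replicate 2, 844 lay in barcodes outside the nucleus filter, at 42.9 CPM. With the ribosomal limit removed and the mitochondrial limit at 5%, Opcml fell by 4.03, Lsamp by 3.41 and Negr1 by 3.33 in stromal-like nuclei, all called, while Ntm had a log2 change of -1.70 and lost its call (edgeR, adjusted p = 0.106).

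In fibroblast-like nuclei alone the same 4 genes were called lower, against a background of 809 of 8366 genes called, 9.67%, with 5.99% called lower and 3.68% higher. Lsamp fell by 3.88 on the log2 scale (SE 0.56, adjusted p = 0.00197 by edgeR), from 1079 and 1047 CPM to 106.8 and 45.2 CPM. Opcml fell by 2.12 (SE 0.38, adjusted p = 0.00637 by edgeR), from 359.6 and 362.2 CPM to 63.4 and 109.8 CPM. Ntm, from 161.2 and 92.1 CPM to 36.7 and 13.7 CPM, and Negr1, from 167.4 and 222.1 CPM to 3.34 and 61.3 CPM, each fell by 2.51 (edgeR, adjusted p = 0.0291 and 0.0293). Without day 3 replicate 2 the log2 change was -5.64 for Negr1 and -1.57 for Ntm, and without day 3 replicate 1 it was -1.87 and -3.32.

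Lsamp was called in fibroblast-like nuclei under all 13 alternatives run, with log2 changes from -4.74 to -2.46. Opcml was called in 11 of these 13, Negr1 in 10 (log2 changes from -5.64 to -1.65) and Ntm in 8 (from -3.32 to -1.57). With marker genes kept among the clustering features Opcml and Negr1 lost their calls (edgeR, adjusted p = 0.0928 and 0.270), and with the wider nucleus limits Negr1 and Ntm did (edgeR, adjusted p = 0.331 and 0.139). Without day 3 replicate 1, Lsamp kept its call there, while Opcml, Negr1 and Ntm did not. The 6 SSPC markers summed to 985.8 and 1287 CPM in uninjured fibroblast-like nuclei and to 160.1 and 185.7 CPM at day 3, with all 6 detected in each, and the 6 fibroblast markers to 5165 and 9619 CPM and then 2082 and 2522 CPM. The part of these shifts in the IgLON changes was not tested.

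In endothelial-like and immune-like nuclei edgeR called no IgLON gene. In endothelial-like nuclei, with 264 of 6833 genes called, 3.86% (1.79% higher and 2.08% lower), only Lsamp and Ntm passed the filter. Lsamp stood at 33.3 and 37.1 CPM and then at 10.8 and 18.2 CPM (log2 change -1.23, SE 0.61, adjusted p = 0.354 by edgeR). Ntm stood at 121.2 and 62.7 CPM and then at 54.1 and 10.1 CPM (log2 change -2.26, SE 0.79, adjusted p = 0.165 by edgeR). Both had groups that did not overlap, a share again not counted over all genes. The unadjusted p was under 0.05 for Ntm alone, at 0.0183 by edgeR. DESeq2 called 0 of these 2 genes.

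In immune-like nuclei 8 of 5495 genes were called, 0.146%. The background levels there were lower at day 3 too. Opcml went from 157.5 and 65.5 CPM to 6.36 and 5.87 CPM (log2 change -3.78, SE 0.92, adjusted p = 0.135 by edgeR). Negr1 went from 210 and 214.7 CPM to 0 and 16.6 CPM (log2 change -4.15, SE 0.84, adjusted p = 0.0687 by edgeR), and was called in 3 of the 11 alternatives in which it was tested. Lsamp and Ntm had log2 changes of -2.36 and -2.47 with adjusted p of 0.905 and 0.761 by edgeR. All 4 had an unadjusted p under 0.05, and DESeq2 called 1 of them, Negr1. The part of this background in the stromal changes was not tested.

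The difference in change between populations was also tested in edgeR, with libraries as blocks. Against fibroblast-like nuclei, 1 IgLON gene, Lsamp, differed in endothelial-like nuclei, where 3.91% of all genes tested were called. In immune-like nuclei edgeR called no IgLON gene for such a difference, 1 had an unadjusted p under 0.05, and 1.43% of all genes tested were called.

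**Figure D4:**
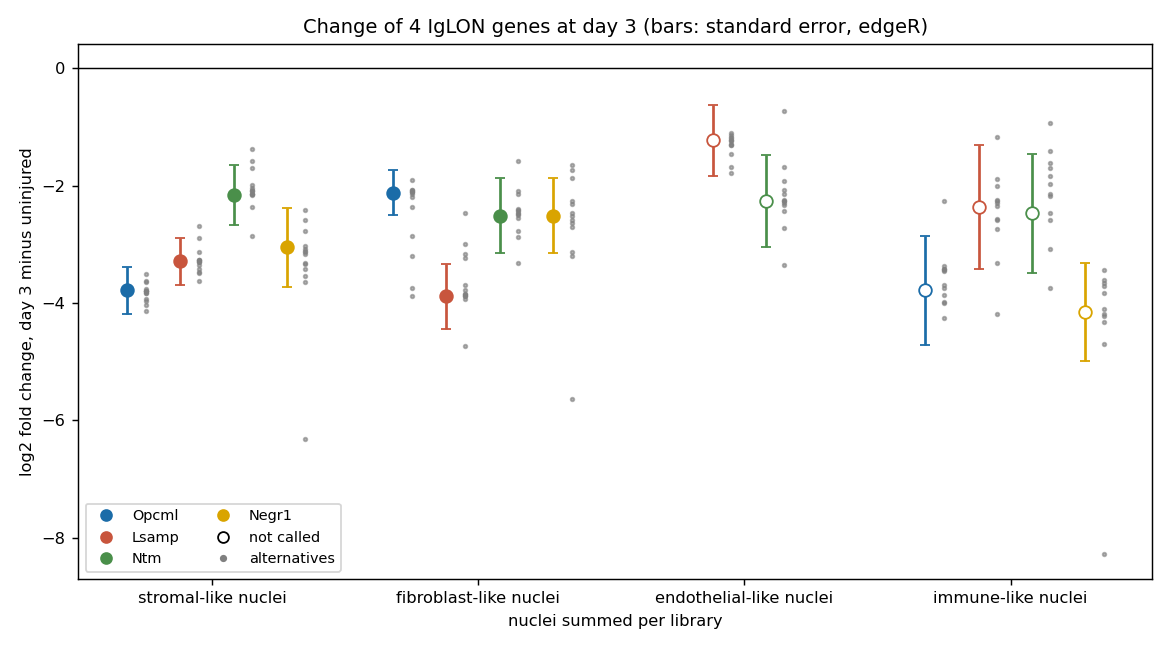
Log2 fold change at day 3 against uninjured (y axis) for 4 IgLON genes in each group of summed nuclei (x axis), with standard errors from edgeR. Filled points passed an adjusted p of 0.05, open points did not, and grey points are the alternatives to each processing choice. All values shown are below 0.

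The remaining lists are of genes that resemble IgLON genes in structure or act on them, and each is given with the stromal-like test. Of 30 other adhesion genes of the immunoglobulin superfamily, 22 were tested, 2 rose and 4 fell (over all genes tested, 3.77% rose and 5.27% fell), with a median log2 change of -0.41, against 0.04 over all genes tested. Chl1, a neural adhesion gene, rose from a mean of 99.1 to 742 CPM, by 2.82 (SE 0.37, adjusted p = 0.00296 by edgeR). Ncam1, the neural cell adhesion molecule, rose by 2.43 (SE 0.39, adjusted p = 0.00695 by edgeR). Cadm3, a synaptic adhesion gene, fell by 6.13 (SE 0.77, adjusted p = 0.00242 by edgeR). Jam2, a junctional adhesion gene, fell by 2.83 (SE 0.76, adjusted p = 0.0480 by edgeR). The other 16 genes tested were not called.

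Of 36 other GPI-anchored surface genes, 26 were tested, 1 rose and 4 fell (3.77% and 5.27% over all genes tested), with a median of -0.97. Mdga1, which binds neuroligins, rose from a mean of 7.59 to 56.8 CPM, by 3.00 (SE 0.61, adjusted p = 0.0167 by edgeR). Ntng1, a netrin relative, fell from a mean of 779.4 to 6.35 CPM, by 6.7 (SE 0.58, adjusted p = 0.00102 by edgeR). The fibroblast cluster led by Tenm2 and Ntng1 held 15 and 22 nuclei before fracture and 2 and 3 at day 3. That led by Luzp2 and Nlgn1, with Ntng1 also among its top genes, held 18 and 15 and then none. The part of this shift in the Ntng1 change was not tested. Gpc3, a glypican, fell by 3.52 (SE 0.36, adjusted p = 0.00122 by edgeR). The genes that make and attach the GPI anchor gave no call, with 20 of 28 tested and a median of 0.21. Of these 20, 1 had an unadjusted p under 0.05 by edgeR.

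Of 13 enzymes that shed surface proteins, 12 were tested, 1 rose and 2 fell (3.77% and 5.27% over all genes tested), with a median of 0.01. Adam12, a metalloproteinase, rose from a mean of 249 to 2109 CPM, by 3.08 (SE 0.46, adjusted p = 0.00513 by edgeR). Gdpd5, which cuts GPI anchors, fell by 4.16 (SE 0.67, adjusted p = 0.00693 by edgeR), and Adam33 by 2.22 (SE 0.53, adjusted p = 0.0303 by edgeR). Of the 4 receptor tyrosine kinases tied to OPCML, 3 were tested and 1 fell, Axl, by 1.89 (SE 0.41, adjusted p = 0.0205 by edgeR), from a mean of 213.1 to 60.3 CPM. In fibroblast-like nuclei edgeR called none of these 3 kinases, of which 2 had an unadjusted p under 0.05.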

How the data were processed

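Nuclei of 6 libraries were sequenced with 10x Genomics 3' chemistry. The authors deposited raw UMI counts per gene and barcode, made with Cell Ranger 6.0.0 (3 libraries) or 7.1.0 (3 libraries) per the file headers, on mm10 per the processing notes. No column belonged to another sample.

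Kept barcodes held 200 to 5000 genes, less than 2% of UMIs from mitochondrial genes and less than 1.5% from ribosomal genes, and muscle nuclei were removed by cluster. The rest were integrated and clustered in Seurat 5.3.0 (2000 features without marker, list and IgLON genes, 20 components, resolution 1.3), giving 26 clusters, of which 3 stayed unnamed. Cell types were rebuilt here, so shares may differ from those of the study. Scrublet marked 20 barcodes automatically and had not worked, so doublets were kept, and the 6% of highest scores per library were removed as an alternative chosen after seeing the data.

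Groups came from the sample labels. UMIs were added up per library and population, and the day 3 and uninjured libraries compared with edgeR 4.0.16 (filterByExpr, TMM, quasi-likelihood test, Benjamini-Hochberg adjustment, threshold 0.05), in R 4.3.3. DESeq2 1.42.0, other scalings, filters and clusterings, and each library left out were tried as alternatives. The difference in change between populations was tested in edgeR with libraries as blocks, also chosen after seeing the data. On simulated counts for the stromal-like comparison, over 9868 genes, 90% of 180 genes changed by a log2 of 3 were recovered and 1 unchanged gene was called. These counts had 1 common dispersion (0.110) for all genes and no added spread of single libraries, so recovery in the real data may be lower. Changed genes lost to the filter on low counts were not among the 180. A library was a pool of mice, so p-values measure only the spread between these libraries, which may be technical. Days 5 and 7, with 1 library each, were not tested.

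The IgLON genes and the lists were chosen with earlier results of these data known. Named besides the IgLON genes were the 3 genes of highest Pearson r of log2(CPM + 10) with each, among genes with at least 100 UMIs, the 2 called genes of largest change in each direction of each list in the stromal-like test, and population markers. Of the genes named by this rule, 1 is not reported here.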

Additional observations from a re-analysis of the deposited data

Results flagged for a closer look

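The change of Lsamp at day 3 differed between populations. In a test of the difference itself, by edgeR's quasi-likelihood test with libraries as blocks and Benjamini-Hochberg adjustment, the log2 change in endothelial-like nuclei was higher than that in fibroblast-like nuclei by 3.05 (adjusted p = 0.00944). In that comparison 335 of 8570 genes were called, 3.91%. Endothelial-like nuclei held little Lsamp, at 33.3 and 37.1 CPM before fracture and 10.8 and 18.2 CPM at day 3, in 39 and 64 nuclei. The uninjured levels lay below the immune-like background of 80.1 to 210 CPM, which is weak in replicate 1. The part of these low levels in the difference was not tested. Lsamp had log2 changes of -3.88 in fibroblast-like and -1.23 in endothelial-like nuclei, and the latter was not called. These changes come from a separate fit for each population, and the difference from the joint fit, so they do not subtract to it. The other 3 IgLON genes tested showed no called difference there, with adjusted p from 0.917 to 0.979 by edgeR. Between fibroblast-like and immune-like nuclei edgeR called no IgLON gene, 1 (Negr1) had an unadjusted p under 0.05, and 106 of 7407 genes were called in all, 1.43%.

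Iglon5, nearly absent from the nuclei that passed the filter, stood at 14.8 CPM (27 UMIs, exact Poisson 95% interval 9.75 to 21.5) in the 2097 day 7 barcodes outside it. The uninjured barcodes outside the filter held 1 UMI, at 1.92 CPM in replicate 2. In the day 7 barcodes all 6 neuron markers were detected, summing to 559 CPM, and their median ribosomal share was 16.4%. Of the 27 UMIs, 2 lay in the 148 barcodes with at least 2 neuron markers, a rule that can miss barcodes of few UMIs. With the wider nucleus limits, over all libraries, unnamed clusters of 805, 545, 422 and 420 barcodes appeared. Each had Dcc and Rmst among its top genes, at medians of 692 to 987 UMIs. The part of any of these barcodes in the Iglon5 level was not tested.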

How the results depend on the processing

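All 181 recomputed log2 changes of single IgLON genes were negative, and none reversed. Of these, 150 stayed on their side of the threshold, 26 lost the call and 5 gained it. The 150 include values of endothelial-like and immune-like nuclei, where no IgLON gene had a call to lose. All 26 losses were in stromal-like and fibroblast-like nuclei. Leaving out 1 library at a time gave 0 to 3 IgLON genes called in stromal-like, 1 to 4 in fibroblast-like and 0 to 1 in endothelial-like nuclei, and 0 to 799, 127 to 1024, 0 to 476 and 0 to 1 genes in all in stromal-like, fibroblast-like, endothelial-like and immune-like nuclei. With marker, list and IgLON genes kept among the clustering features, 2 IgLON genes were called in stromal-like and 2 in fibroblast-like nuclei. In all, 853 of 9884 genes were then called in stromal-like, 446 of 8009 in fibroblast-like and 0 in immune-like nuclei. With the limits at 5% mitochondrial and no ribosomal share, 2 IgLON genes were called in fibroblast-like nuclei. In all, 328 of 6408 genes were called there and 0 genes in immune-like nuclei. With no upper gene limit the counts were 529 in fibroblast-like, 481 in endothelial-like and 0 in immune-like nuclei. With no filter on low counts they were 1354 of 21133 in stromal-like, 732 of 18233 in endothelial-like and 35 of 19312 in immune-like nuclei. The last 2 held 1 IgLON gene each. In immune-like nuclei DESeq2 called 25 of 5495 genes and the removal of doublets left 14 of 5108, with 1 IgLON gene each. The cause of these shifts was not tested. The Opcml ratio was 2.90 with no upper gene limit, and the Lsamp ratio ran from 1.03 to 5.43 with 1 uninjured library left out. Thinned to 1000 UMIs and unthinned, the share of SSPC-like nuclei with Opcml was 81.8% and 79.3% in replicate 1 and 74.1% and 78.5% in replicate 2, and that of fibroblast-like nuclei with Lsamp in replicate 2 was 37.0% and 50.8%. No cluster met the SSPC-like rule at resolution 0.8, without integration or with the wider limits, so these settings gave no Opcml or Lsamp ratio. No paired analysis was possible because the labels carry no replicate numbers that tie uninjured to day 3 libraries. Depth limits Iglon5 and every population with few nuclei at day 3.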
